A study of Mus musculus with 18 samples.

Results

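The 8 genes described here encode transcription and chromatin factors of the formative and primed epiblast, the states that pluripotent cells enter as they leave naïve pluripotency. They are Pou3f1, Otx2, Sox3, Sox4, Zic2, Zic5, Foxd3 and Utf1, and they were taken from the count table by matching these symbols to Ensembl gene identifiers. All 8 were among the 46078 genes in the table, and all 8 were among the 13438 protein-coding genes that passed the filter on low counts and were tested.

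RNA was sequenced from E14 cells, a wild-type line of mouse embryonic stem cells (mESCs) of 129 background, to learn whether gel stiffness and matrix tethering alter expression. Every group was held for 24 h in serum and the cytokine LIF on fibronectin-coated StemBond gels, which are polyacrylamide gels made with AHA (6-acrylamidohexanoic acid), the co-factor that anchors matrix protein. Gels were soft (750 Pa) or stiff (160 kPa), and each stiffness was combined with low, mid or high AHA (16, 48 and 80 mM), which gave 6 groups of 3 libraries. No group on plastic was analysed here, so soft and stiff could be compared only with each other. The labels did not say whether the 3 libraries of a group came from separate cultures, so p-values measure the spread between libraries, which may be technical.

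Gene counts per library ranged from 5850621 to 9290261. Spike-in RNAs (ERCC) took 0.607 to 0.725% of counts in 17 libraries. They took 1.37% in 1 soft library at high AHA (replicate 1), and that library was left out of the fits, which left 8 soft and 9 stiff libraries. Levels are CPM, counts scaled to a common total and between libraries by TMM. Of 8 pluripotent cell markers, 8 were tested, 6 were higher and 1 was lower on soft gels, and their summed level was 2950 to 3137 CPM on soft and 2784 to 2923 CPM on stiff gels. The line therefore carried the markers of its label.

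In serum and LIF, mESCs are a mixture of naïve cells and cells that have begun to move towards the epiblast. Naïve cells are held by factors such as Nanog, Esrrb and the Klf proteins. During the transition these fall while formative factors take over enhancers with Oct4, and Otx2 and Pou3f1 (also called Oct6) are the classic genes of that change. Several of the 8 genes also act later, in neural and neural crest development, so their RNA is not exclusive to the epiblast.

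The members included a pair of genomic neighbours. Zic2 (GRCm38, chr14:122475435-122479852, plus strand) and Zic5 (chr14:122456795-122465677, minus strand) encode zinc-finger proteins and lie head to head. Because related genes can share reads, their most alike ungapped coding stretch of 60 bases was read from the GENCODE transcripts and is shown here, with the bases that differ in capitals. The Zic2 stretch lies at chr14:122476505-122476564 on the plus strand and the Zic5 stretch at chr14:122464075-122464134 on the minus strand, each within 1 coding exon.
Zic2: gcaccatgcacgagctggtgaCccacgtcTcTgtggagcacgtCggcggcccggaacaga
Zic5: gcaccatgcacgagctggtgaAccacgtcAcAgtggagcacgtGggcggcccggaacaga
The stretches matched at 56 of 60 bases (93.3%), and the longest identical run in them was 21 bases. No window of 50 bases of Zic2 occurred in a transcript of another gene, and the same held for Sox3 and Utf1. The share of such windows found in other genes was 7.48% for Zic5, 7.42% for Pou3f1, 2.75% for Otx2 and 2.59% for Foxd3. For Sox4 it was 54.1%, all in Gm26735, a gene annotated on the opposite strand, and since the counting was not stated to use strand, Sox4 values are uncertain.

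Averaged over the 3 AHA concentrations, 3 of the 8 members differed between soft and stiff gels, and they did not move in 1 direction. Zic2 was 1.37-fold higher on soft gels (95% confidence interval 1.23 to 1.52). Pou3f1 was 1.23-fold higher on stiff gels (1.14 to 1.32), and Utf1 was 1.10-fold higher on stiff gels (1.05 to 1.15). The other 5 did not pass the test, with log2 fold changes (soft minus stiff) between -0.14 and 0.070. Over all genes tested, 8.59% were called in this comparison, 3.77% higher and 4.82% lower on soft gels. The median log2 fold change was -0.099 over the 8 members and 0.0011 over all genes.

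Markers of other cell types moved with stiffness in part. The summed level of 8 neural markers was 216 to 276 CPM on soft and 284 to 319 CPM on stiff gels, and Nes alone averaged 219 and 277 CPM (-0.32, adjusted p = 3.05e-17), while the defining markers Sox1 (0.13, unadjusted p = 0.53) and Pax6 (0.29, unadjusted p = 0.0131, adjusted p = 0.107) had values in the other direction and were not called, and Pax3, Neurog2, Hes5 and Pou3f2 were too low to test. Of 7 fibroblast markers 5 were tested and 1 was called, Col1a1 (-0.49), and the summed level was 114 to 197 CPM on soft and 166 to 238 CPM on stiff gels, with Dcn and Lum under 1 CPM in every library. Of 6 neural crest markers 4 were tested and 1 was called, Ets1 (-0.33), with sums of 31.7 to 44.3 and 38.8 to 63.8 CPM. Of the markers abundant enough to test, 7 of 7 for primitive endoderm, 6 of 7 for mesoderm and primitive streak and 5 of 6 for 2-cell-like cells, edgeR called 0, and at an unadjusted p under 0.05 there were 0, 1 (Eomes) and 1 (Tcstv3), and of 4 trophectoderm markers tested of 5, Tfap2c was higher and Hand1 lower. The part of these cell types in the differences of Zic2, Pou3f1 and Utf1 was not tested, and in bulk RNA fewer cells of a type and less RNA per cell cannot be told apart.

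**Figure D1:**
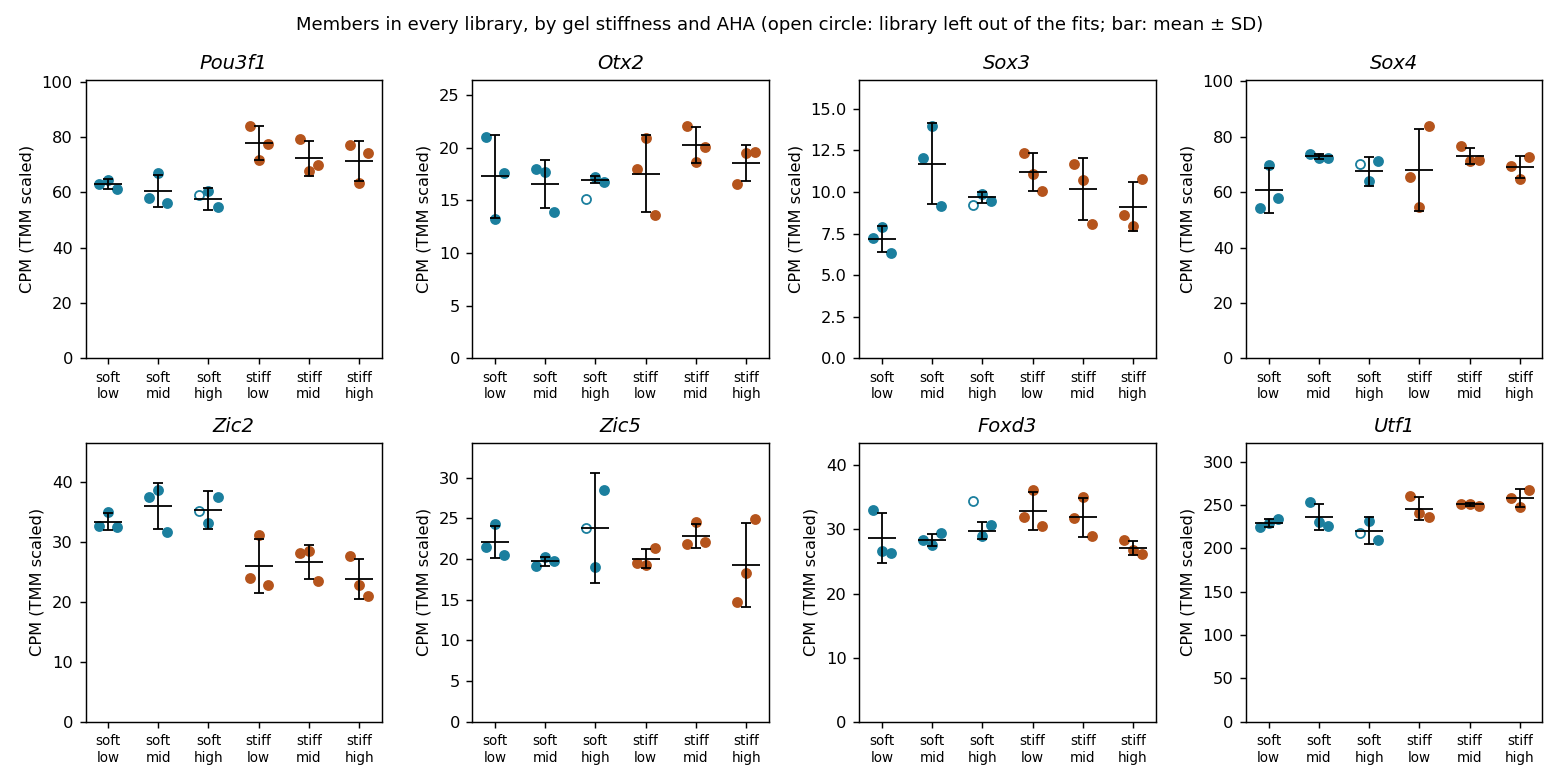
CPM (vertical axes, from 0) of the 8 members in each library, by group (soft in blue, stiff in orange; low, mid and high AHA). Bars are mean ± SD over the libraries used, and the open circle is the soft, high AHA library left out. All 8 soft Zic2 values lie above the 9 stiff values, whereas Pou3f1 and Utf1 lie mostly lower on soft gels.

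Zic2, which occupies enhancers in mESCs and later acts in forebrain and neural tube development, was the one member whose soft and stiff libraries did not overlap. In soft libraries it was 32.7, 35.1 and 32.5 CPM at low AHA, 37.6, 38.8 and 31.7 CPM at mid AHA, and 33.2 and 37.6 CPM at high AHA. In stiff libraries it was 24.0, 31.3 and 22.8 CPM at low AHA, 28.1, 28.5 and 23.5 CPM at mid AHA, and 27.6, 22.9 and 21.03 CPM at high AHA. The lowest soft value, 31.7 CPM, was only just above the highest stiff value, 31.3 CPM, so the gap between the sets was narrow. Among all genes tested, 1.27% had no overlap of this kind. The averaged log2 fold change of Zic2 was 0.45 ± 0.078 (SE), with adjusted p = 2.33e-06 by edgeR's quasi-likelihood test. The library left out had 35.2 CPM, within the range of the other soft libraries, and with it the fold change was 0.45 (adjusted p = 5.47e-07).

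Zic5, the head-to-head neighbour of Zic2 and a zinc-finger factor of the same family, showed no such separation. Its level was 19 to 28.6 CPM on soft gels (median 20.4, n = 8) and 14.7 to 24.9 CPM on stiff gels (median 21.4, n = 9), so the sets overlapped over most of their range. The averaged log2 fold change was 0.070, with a 95% interval of -0.11 to 0.25 and adjusted p = 0.746. It turned to -0.033 when replicate 3 of soft, high AHA, the library with 28.6 CPM, was left out.

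A call for one gene and none for its neighbour does not show that they differ. The ratio of Zic2 to Zic5 counts within each library, which needs no scaling, is given as a description with no test, because it was chosen after Zic2 had been seen to separate the gels. Soft libraries had a mean log2 ratio of 0.70 ± 0.20 (SD, n = 8). Stiff libraries had one of 0.31 ± 0.34 (SD, n = 9). The difference was 0.39 over all AHA concentrations, and it was 0.23 at low, 0.64 at mid and 0.27 at high AHA, yet only 2 soft libraries lay above every stiff one, and stiff libraries spanned -0.24 to 0.91. With all 18 libraries the difference was 0.38.

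**Figure D2:**
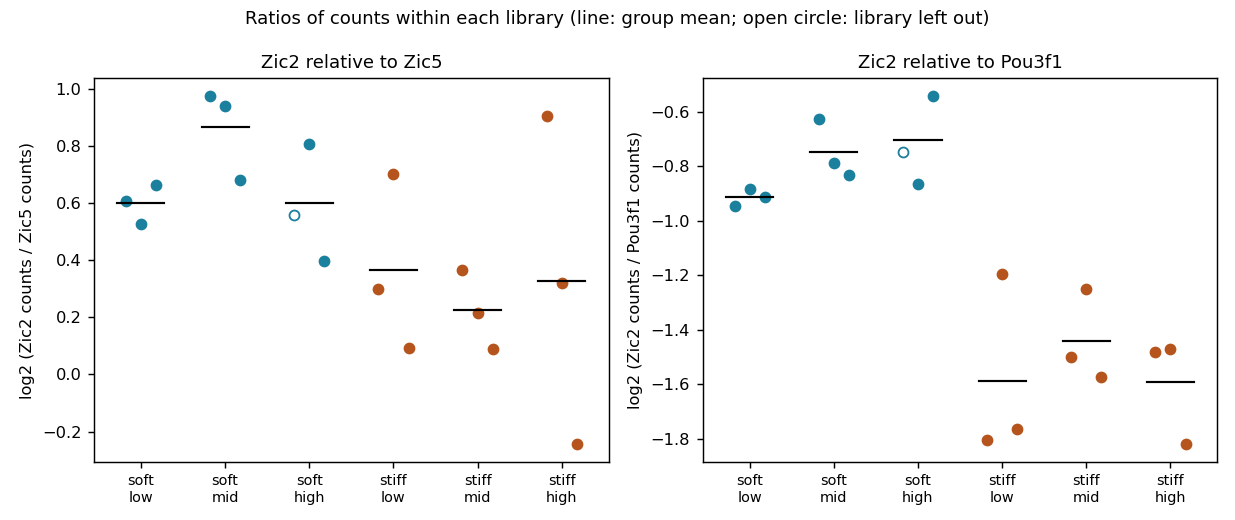
Log2 ratio of counts within each library (vertical axes) for Zic2 over Zic5 (left) and Zic2 over Pou3f1 (right), by group, with lines at group means and an open circle for the library left out. The Zic2 to Zic5 ratios overlap between soft and stiff gels, while the Zic2 to Pou3f1 ratios lie from -0.95 to -0.54 on soft and from -1.82 to -1.20 on stiff gels.

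Pou3f1, a POU-domain factor that is switched on as naïve pluripotency is left, moved opposite to Zic2. In stiff libraries it was 84.0, 71.7 and 77.5 CPM at low AHA, 79.4, 67.7 and 69.8 CPM at mid AHA, and 77.0, 63.4 and 74.2 CPM at high AHA. In soft libraries it was 63.0, 64.7 and 61.2 CPM at low AHA, 58.0, 67.1 and 56.4 CPM at mid AHA, and 60.5 and 54.7 CPM at high AHA. The sets overlapped through few libraries, with 6 of 8 soft libraries below every stiff library. The lowest stiff library was replicate 2 of stiff, high AHA. The averaged log2 fold change was -0.30 ± 0.053 (SE), with adjusted p = 7.85e-06 by edgeR's quasi-likelihood test. Pou3f1 is a single-exon gene at chr4:124656807-124660655 on the plus strand, and 8.57% of its exon length overlaps Gm2164 on the other strand. As for Sox4, the counting was not stated to use strand, though the overlap is smaller here. The part of this overlap in the Pou3f1 difference was not tested.

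As the pair of members with the lowest adjusted p, Zic2 and Pou3f1 were also set side by side within libraries, again with no test because the pair was picked for its opposite changes. The log2 ratio of Zic2 to Pou3f1 counts averaged -0.80 ± 0.14 (SD, n = 8) over soft libraries. Over stiff libraries it averaged -1.54 ± 0.23 (SD, n = 9), a difference of 0.74. It was 0.67 at low, 0.69 at mid and 0.89 at high AHA, and all 8 soft libraries lay above all 9 stiff libraries.

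Utf1 (chr7:139943789-139945112, plus strand), a chromatin-associated factor of pluripotent cells that is present in naïve and epiblast-like cells and lost on differentiation, had the highest level of the members. In soft libraries it was 224.3, 229.0 and 234.0 CPM at low AHA, 253.7, 230.1 and 225.5 CPM at mid AHA, and 231.7 and 209.1 CPM at high AHA. In stiff libraries it was 260.5, 241.0 and 236.1 CPM at low AHA, 251.6, 251.6 and 248.8 CPM at mid AHA, and 258.2, 247.4 and 267.8 CPM at high AHA. Of 8 soft libraries, 7 lay below every stiff library, and replicate 1 of soft, mid AHA was the exception. The averaged log2 fold change was -0.14 ± 0.031 (SE), with adjusted p = 0.000599 in edgeR's quasi-likelihood test, and the gene had 978 to 1682 counts per library. Its spread within groups, a coefficient of variation of 4.52%, was the smallest of the 8 members, against 2.80% from counting alone.

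Upstream bases in RefSeq (GRCm38.p6) were given for 5 of the 8 members, Otx2, Sox4, Zic5, Foxd3 and Utf1. Those of Utf1, the called member among them, are shown from chr7:139943606-139943788 on the plus strand, up to the first base of the gene in GENCODE, with matches to the GC box GGGCGG on either strand in capitals.
Utf1: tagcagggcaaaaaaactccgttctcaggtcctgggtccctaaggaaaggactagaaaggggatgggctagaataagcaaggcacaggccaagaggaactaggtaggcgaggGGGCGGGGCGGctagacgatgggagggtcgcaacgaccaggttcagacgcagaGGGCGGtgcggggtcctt
The 183 bases held 3 matches, of which a pair overlaps by a base. In the first 183 bases of 32851 promoter entries, at least 1 match was present in 21.5% and 3 or more in 3.36%. These bases were not aligned to the gene starts of those entries. The Utf1 window was 59.6% G or C, against a median of 51.4% over the entries. A motif of only G and C is favoured by such a composition, and the shares were not corrected for it. The windows of Zic5, Foxd3 and Sox4 that lie upstream of the annotated gene held 0 matches, and no factor binding was measured.

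At single AHA concentrations, Zic2 and Pou3f1 kept their direction throughout, but few calls were made. At low AHA, 1 of 8 members was called, Pou3f1, whose log2 fold change was -0.31 ± 0.088 (SE, adjusted p = 0.0216), where 3.04% of all genes were called. At mid AHA, 1 of 8 was called, Zic2 with 0.43 ± 0.13 (SE, adjusted p = 0.0397), where 2.86% of all genes were called. At high AHA, 2 of 8 were called, Zic2 with 0.56 ± 0.14 (SE, adjusted p = 0.0277) and Utf1 with -0.23 ± 0.058 (SE, adjusted p = 0.0234), where 0.841% of all genes were called. Pou3f1 was -0.26 at mid AHA (adjusted p = 0.0976) and -0.32 at high AHA (adjusted p = 0.105), and Zic2 was 0.38 at low AHA (adjusted p = 0.108). Utf1 was -0.10 at low AHA (adjusted p = 0.37) and -0.084 at mid AHA (adjusted p = 0.5). These single-concentration calls rested on 2 or 3 libraries a group, and each was lost when 1 of several libraries was left out. Pou3f1 at low AHA lost its call without soft low replicate 1, 2 or 3 or stiff low replicate 1 or 3 (adjusted p from 0.0503 to 0.25). Zic2 at mid AHA lost it without soft mid replicate 1 or 2 or stiff mid replicate 1, 2 or 3 (0.0515 to 0.245), and at high AHA without soft high replicate 2 or 3 or stiff high replicate 2 or 3 (0.0627 to 0.336). Utf1 at high AHA lost it without soft high replicate 3 or stiff high replicate 1 or 3 (0.063 to 0.464). Where a soft high library was left out, that group kept 1 library, which was assumed to vary like the other groups, and the log2 fold change of Zic2 was then 0.64 without replicate 2 and 0.47 without replicate 3. With all 18 libraries Pou3f1 was also called at high AHA (-0.31, adjusted p = 0.0305).

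**Figure D3:**
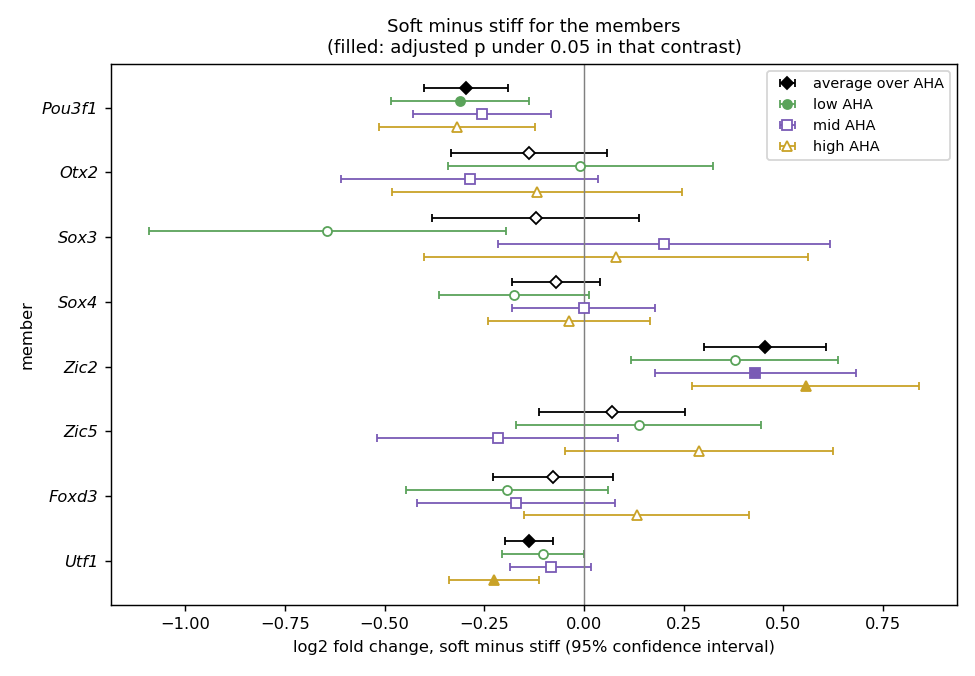
Log2 fold change (soft minus stiff, horizontal axis) with 95% confidence intervals for each member, averaged over AHA (black) and at low, mid and high AHA (colours). Filled symbols passed adjusted p of 0.05 in that contrast, and those of Zic2 lie right of 0 while those of Pou3f1 and Utf1 lie left of it.

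The other SOX, OTX and forkhead members showed no averaged difference that passed the test. Otx2 (chr14:48657677-48673819, minus strand), the homeobox factor that drives entry into the formative state, was 13.2 to 21.1 CPM on soft gels (median 17.4) and 13.7 to 22.1 CPM on stiff gels (median 19.5). Its averaged log2 fold change was -0.14, with a 95% interval of -0.33 to 0.058 and adjusted p = 0.473. It had 70 to 114 counts per library, and the fold change was -0.081 without soft low replicate 2.

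Foxd3 (chr4:99656299-99658622, plus strand, a single exon), a forkhead factor needed in pluripotent cells and in the neural crest, was 26.3 to 33.1 CPM on soft and 26.2 to 36.2 CPM on stiff gels. Its averaged log2 fold change was -0.077 (95% interval -0.23 to 0.074, adjusted p = 0.637). Sox4 (chr13:28948919-28953713, minus strand), a SoxC factor found in many progenitors, was 54.4 to 73.8 CPM on soft and 54.5 to 83.8 CPM on stiff gels, with an averaged log2 fold change of -0.071 (95% interval -0.18 to 0.039, adjusted p = 0.519). The Sox4 value was -0.0068 without stiff low replicate 3, and Foxd3 was -0.031 with soft high replicate 2 left out in place of replicate 1.

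Sox3 (chrX:60891366-60893430, minus strand), a SoxB1 factor of epiblast and neural progenitors, had the lowest level, with 33 to 78 counts per library. On soft gels it was 7.22, 7.92 and 6.35 CPM at low AHA, 12.0, 13.9 and 9.15 CPM at mid AHA, and 9.90 and 9.45 CPM at high AHA. On stiff gels it was 12.4, 11.1 and 10.1 CPM at low AHA, 11.7, 10.7 and 8.10 CPM at mid AHA, and 8.60, 7.95 and 10.8 CPM at high AHA. The 3 soft, low AHA libraries lay below every other library, the nearest being a stiff, high AHA library at 7.95 CPM. This pattern did not pass a test after adjustment, with a log2 fold change of -0.64 for soft minus stiff at low AHA (adjusted p = 0.114) and 0.70 for mid minus low AHA on soft gels (adjusted p = 0.518). Averaged over AHA the log2 fold change of Sox3 was -0.12 (95% interval -0.38 to 0.14, adjusted p = 0.677), and -0.071 without soft mid replicate 3.

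AHA concentration gave no call among the members. On soft gels, 0 of 24 tests over 8 members and 3 contrasts passed, with 2 at an unadjusted p under 0.05 (Sox3 and Sox4, both mid minus low), where 0.260% of all genes were called in at least 1 contrast. On stiff gels, 0 of 24 passed, with 1 at an unadjusted p under 0.05 (Foxd3, high minus low), where 0.0149% of all genes were called. The interaction, an F test that the 3 soft minus stiff differences are equal, called 0 of 8 members, with 1 (Sox3) at an unadjusted p under 0.05, where 0.0298% of all genes were called. DESeq2 called 0 members in each of these 3 sets as well, but gave no adjusted p for 12 of the 24 tests on soft gels.

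The groups were then placed in order of each member's mean level. From highest to lowest, Zic2 ran soft mid (36.0 CPM), soft high (35.4), soft low (33.4), stiff mid (26.7), stiff low (26.0) and stiff high (23.9), so the soft groups came first. Pou3f1 ran stiff low (77.7 CPM), stiff mid (72.3), stiff high (71.5), soft low (63.0), soft mid (60.5) and soft high (57.6), and Utf1 also had its 3 stiff groups above its 3 soft groups, from 257.8 CPM on stiff high to 220.4 CPM on soft high. Otx2 too had its stiff groups first, at 17.5 to 20.3 CPM against 16.5 to 17.3 CPM, and the other 4 members mixed soft and stiff groups in their order. EdgeR called 0 of the 40 steps between neighbouring groups, and 2 had an unadjusted p under 0.05. DESeq2 also called 0, but gave no adjusted p for 11 of its 40 steps. Over all 15 pairs of groups, members were called in 10 of 120 tests, 5 for Zic2, 3 for Pou3f1 and 2 for Utf1, and each of these set a soft against a stiff group. For all genes, 1.47% of such tests were called. The 3 Pou3f1 calls all had stiff, low AHA as the higher group.

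Per kilobase of exon, Utf1 was the most abundant member with 197 CPM per kb over the 17 libraries. Pou3f1 followed with 17.6, Sox4 with 14.3, Foxd3 with 12.8 and Zic2 with 10.4 CPM per kb, and Sox3 (4.77), Zic5 (4.33) and Otx2 (4.24) were lowest. Zic2 was below Foxd3 on both gels, at 12.1 against 12.4 CPM per kb on soft gels and 8.87 against 13.2 CPM per kb on stiff gels. The coefficient of variation within groups was near that of counting alone for Foxd3 (8.57% against 7.96%) and Sox3 (15.9% against 14.1%). It was farther above it for Sox4 (11.2% against 5.28%), Zic5 (15.3% against 9.51%), Pou3f1 (8.31% against 5.30%), Otx2 (15.1% against 10.3%) and Zic2 (11.2% against 8.08%).

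No pair of members passed a test of correlation within a stiffness. Pearson's r between log2 CPM of member pairs was computed for 28 pairs in 8 soft and in 9 stiff libraries, 56 relations in all, and 0 passed adjustment by exact permutation while 4 had an unadjusted p under 0.05. The highest r was 0.787 for Zic2 and Foxd3 on stiff gels, with Spearman's rho 0.800, exact permutation p = 0.0144 and 0.0138, adjusted p = 0.612 and 0.686, and r = 0.521 without the 2 libraries farthest from the Zic2 median. On soft gels Sox3 and Sox4 had r = 0.738 and rho 0.786, with exact permutation p = 0.0402 and 0.0279, and the same adjusted p-values. Sox3 and Zic2 on soft gels had r = 0.734 (exact permutation p = 0.0427, adjusted p = 0.612). Zic5 and Utf1 on soft gels went the other way, with r = -0.746 and rho -0.667. Their exact permutation p was 0.0437 and 0.0831, and adjusted p was 0.612 and 0.774. The median r was 0.0839 over the soft and 0.134 over the stiff pairs.

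The genes whose log2 CPM was most like each member over 17 libraries, among 9225 genes with a mean of at least 10 CPM, are given as a description that follows the soft and stiff groups. For Zic2 they were Alg13 (r = 0.900), Kat6b (0.861) and Dnajc13 (0.859). For Pou3f1 they were Phlda1 (0.866), Ppp1r18 (0.853) and Pdlim7 (0.846), and for Utf1 Akr1a1 (0.888), Mrpl20 (0.869) and Tubb4b (0.866). They were Hras (0.742), Rpp21 (0.741) and Spryd7 (0.739) for Otx2, and March5 (0.801), Mtch1 (0.761) and Nr4a1 (0.747) for Sox3. For Sox4 they were Col11a1 (0.820), Dpagt1 (0.761) and Ciao1 (0.758). For Zic5 they were Slc12a9 (0.720), Ralgapa2 (0.700) and Ei24 (0.687), and for Foxd3 Plpbp (0.744), Nsdhl (0.736) and Kdelr1 (0.687). The highest r for a member without a stiffness call was thus below those of Zic2, Pou3f1 and Utf1.

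Among 30 other formative and primed genes, 15 were called in the averaged comparison, 3 higher and 12 lower on soft gels, and their median log2 fold change was -0.020. Over all genes tested, 8.59% were called, 3.77% higher and 4.82% lower on soft gels. As with the members, the calls went both ways, but most were lower on soft gels. Those lower on soft gels included the de novo DNA methyltransferases Dnmt3a (-0.15, adjusted p = 0.00121) and Dnmt3b (-0.13, adjusted p = 7.34e-06), their cofactor Dnmt3l (-0.13), the Wnt effector Lef1 (-0.30, adjusted p = 0.0116), Tcf15 (-0.31), Etv4 (-0.56), Grhl2 (-0.21), Cldn6 (-0.30), Cdh2 (-0.21), Sox11 (-0.20), Fzd2 (-0.24) and Igfbp3 (-0.21). Those higher on soft gels were the Nodal antagonist Lefty1 (0.34), the ephrin receptor Epha4 (0.22) and the repressor Tcf7l1 (0.13). Fgf5, the usual marker of primed epiblast, was low, at 4.34 ± 1.59 CPM (SD) in 8 soft libraries and 3.63 ± 0.994 CPM (SD) in 9 stiff libraries, and did not pass the test (0.27, adjusted p = 0.506).

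**Figure D4:**
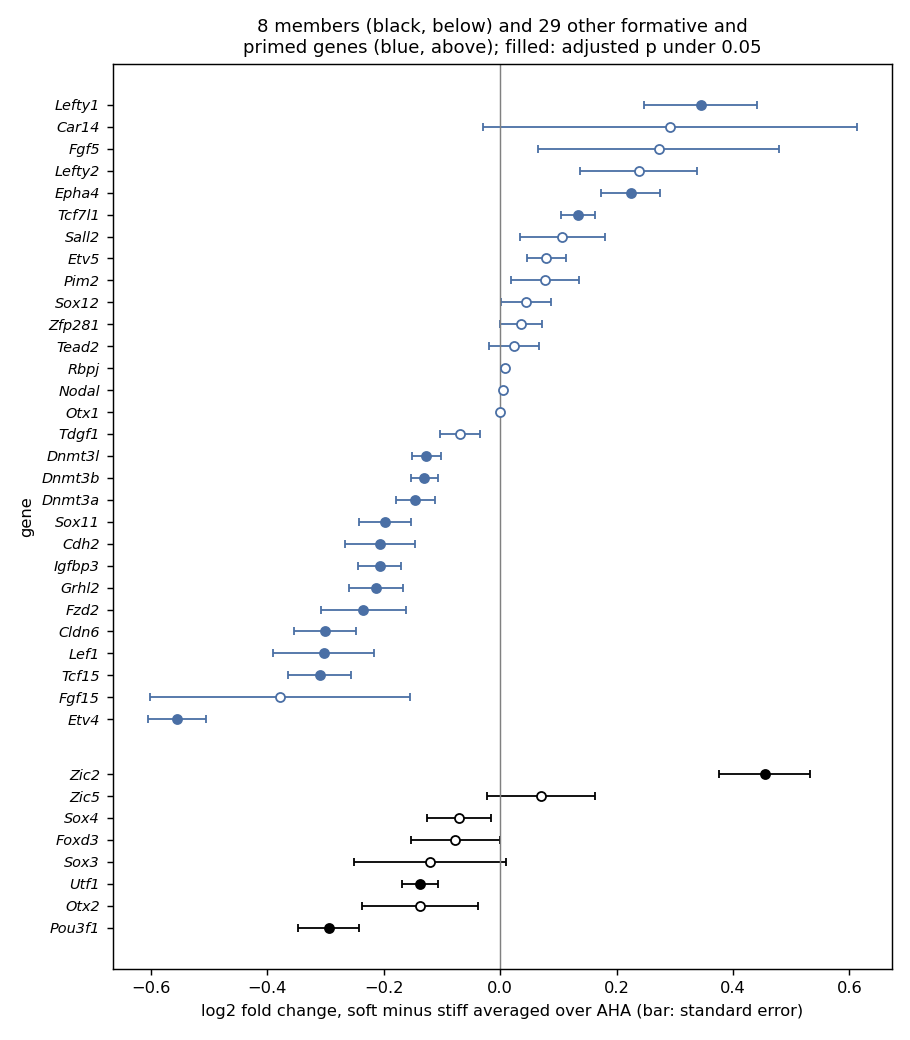
Averaged log2 fold change (soft minus stiff, horizontal axis) of the 8 members (black, below) and 29 of the 30 other formative and primed genes (blue, above), with standard errors and filled symbols for adjusted p under 0.05. No bar is drawn for a change under 0.01, and calls lie on both sides of 0 in each set.

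Among family relatives of the members, 7 of 14 were abundant enough to test. Sox2 was higher on soft gels (0.19, adjusted p = 9.4e-08) and Sox11 lower, where 8.59% of all genes were called. By contrast, of 14 naïve pluripotency genes 12 were called and all 12 were higher on soft gels. Of all genes tested, 3.77% were called higher. The naïve genes had a median log2 fold change of 0.27, so Zic2 moved with this list and Pou3f1 and Utf1 against it.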

How the data were processed

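The 8 members and all gene lists were chosen with earlier results of these data known. Per the submitters' processing notes, reads were trimmed with Trim Galore 0.4.4 and aligned with GSNAP to mm10, and HTSeq gave the raw read counts per Ensembl gene that the authors deposited, with no normalisation. Libraries were made with a Takara pico mammalian kit. The strand setting of HTSeq was not given in the sources used here. Summary lines of HTSeq (61.5 to 64.0% of each column) and spike-ins were kept out of library sizes.

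From these counts, edgeR 4.0.16 (R 4.3.3) fitted a robust quasi-likelihood model with TMM scaling and 1 coefficient per group to protein-coding genes passing filterByExpr (minimum count 10). The study set aside libraries with a high ERCC share, and the soft, high AHA library highest in it was left out. P-values were adjusted by Benjamini-Hochberg over all 13438 genes within a contrast, with calls at 0.05. Symbols came from GENCODE M21 (45143 of 46078 genes). Alternatives were RLE scaling, DESeq2 1.42.0, a lower filter (2 counts), all 18 libraries, either other soft, high AHA library left out, every biotype, each library left out, and fits of only the groups compared. Correlations used log2 CPM with a prior count of 2, or 0.5 as an alternative. All members were named, with the 3 nearest genes of each, called genes of the formative list, and Fgf5, Lef1, Dnmt3a and Dnmt3b.

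The fit was tested on simulated data. Depth limits Sox3 most. Some listed genes are counted in their lists but not reported here.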

Additional observations from a re-analysis of the deposited data

Results flagged for a closer look

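Of 48 sets of soft or stiff libraries examined, 16 of them for the members and the rest for named formative genes, 1 held a library far from the others, and about 1 in 20 would by chance. In replicate 2 of soft, high AHA, Tcf15, a bHLH factor of cells primed to leave naïve pluripotency, was 48.4 CPM, and the nearest of the other 7 soft libraries was 55.8 CPM. No set of the 8 members was picked out in this way, and no member passed the interaction test.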

How the results depend on the processing

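The averaged calls of Zic2, Pou3f1 and Utf1 were the same 3 genes under all 24 alternatives, with log2 fold changes of 0.42 to 0.50, -0.33 to -0.27 and -0.17 to -0.11 and highest adjusted p of 6.57e-05, 0.000195 and 0.0152, each without replicate 3 of soft, high AHA. Zic5 ranged from -0.033 to 0.159 with each library left out in turn, and was below 0 only without that same library (adjusted p = 0.916). Counts at single AHA concentrations were less stable. With each library left out in turn they ranged from 0 to 2 members at low AHA, 0 to 1 at mid AHA and 0 to 2 at high AHA. DESeq2 called 0 members at mid AHA, where Zic2 had adjusted p = 0.0526, and 1 at high AHA, where it gave Zic2 no adjusted p. A fit of only both groups compared called 1 at high AHA, with Utf1 at adjusted p = 0.0606. The number of members whose soft and stiff libraries did not overlap was 1 to 2, Utf1 joining without replicate 1 of soft, mid AHA and Pou3f1 without replicate 2 of stiff, high AHA. The cause was not tested. Counts of calls for AHA, interaction, neighbouring groups, other formative genes and correlations stayed within 1.5 times in the alternatives run for each. No paired analysis was possible because the labels give no replicate numbers shared between groups.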
